A study of Mus musculus with 4 samples.

Results

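The genes described here carry cells through mitosis and cytokinesis. They are a list of 54 genes for mitotic kinases, checkpoint proteins, kinetochore proteins, kinesins, condensin and the machinery of cell division. Known function was the criterion and values of these arrays were not, though genes and roles were chosen with earlier results of these data known. A gene counted as measured when at least 1 feature of the array was annotated to it and to no other gene. Of the 54 genes 53 were measured, among 19938 genes measured in all. Sgol1 was found under its current symbol Sgo1, and Ccnb1 was not analysed here.

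RNA came from cultures of 2 mouse erythroid systems, each profiled on 2 Affymetrix Mouse Gene 1.0 ST arrays. MEL, an erythroleukemia line, was grown with serum and puromycin, and estradiol was given for 48 hours. ES-EP stands for a culture of erythroid progenitors that was derived from embryonic stem (ES) cells. Before differentiation their medium held dexamethasone, stem cell factor, erythropoietin and IGF-1. They were differentiated for 24 hours with erythropoietin, insulin and mifepristone, an antagonist of the glucocorticoid receptor. The sources used here do not give what makes this MEL line respond to estradiol or what the puromycin selects. Cell line, medium, inducer and hours differed together between the groups and cannot be told apart. All cultures of both groups were differentiating, so no value below is a change during differentiation. The duplicates are lettered A and B, and nothing says whether they were grown at separate times. The p-values thus cover no spread beyond that between such duplicates. For each gene the fit combines its own spread with that of all features. Fewer cells in mitosis and less of a transcript in each mitotic cell cannot be told apart in such bulk RNA.

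Mitosis is entered when cyclin-dependent kinase 1, bound to cyclin, is switched on by CDC25 phosphatases. Chromosomes condense and attach to spindle microtubules through kinetochores, and the spindle checkpoint holds back anaphase until every kinetochore is attached. The anaphase promoting complex then marks securin and cyclin for destruction, sister chromatids part, and the cell is cleaved between them. Most of these genes are transcribed late in the cell cycle, when MYBL2 and FOXM1 act on their promoters with the MuvB complex. Maturing erythroblasts pass through a last few divisions before they leave the cycle.

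The mitosis genes did not differ in a common direction between the systems. With limma and an adjusted p under 0.05, 14 of the 53 genes had a higher signal in MEL, 16 were lower and 23 did not pass. Those are shares of 26.4% and 30.2%, against 21.8% of all genes higher and 36.9% lower. On the values as deposited no mitosis gene was at least 2-fold higher, where 7.38% of all genes were, and 4 were at least 2-fold lower, Pttg1, Kif18a, Birc5 and Smc4, where 4.93% of all genes were. Both counts moved with the scaling of the arrays. Cenpa and Racgap1 came past 2-fold higher after quantile normalization (1.05 and 1.03 on the log2 scale, against 7.62% of all genes) and after cyclic loess (1.02 and 1.01, against 8.56%), but not after centring (0.97 for each, against 8.16%). Only Pttg1 and Kif18a stayed at least 2-fold lower under these 3 scalings, against 4.54%, 3.93% and 4.25% of all genes. Birc5 stood at -0.96, -0.94 and -0.99 there, and Smc4 at -0.89, -0.92 and -0.97. The differences ran from -1.34 to 0.91 on the log2 scale, and 41 of the 53 genes lay within 1.5-fold, a share of 77.4% against 72.4% of all genes.

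The array medians of these genes, in RMA log2 units, were 10.17 and 10.23 in MEL cultures A and B and 10.24 and 10.25 in ES-EP cultures A and B. The median difference of the mitosis genes was -0.02, against -0.14 for all genes. Both MEL cultures were above both ES-EP cultures for 22 of the 53 genes and below them for 25, against 28.7% and 51.5% of all genes. The groups overlapped for 6 genes, Espl1, Top2a, Mad2l1, Cdc25b, Ccnb2 and Kif11.

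**Figure D1:**
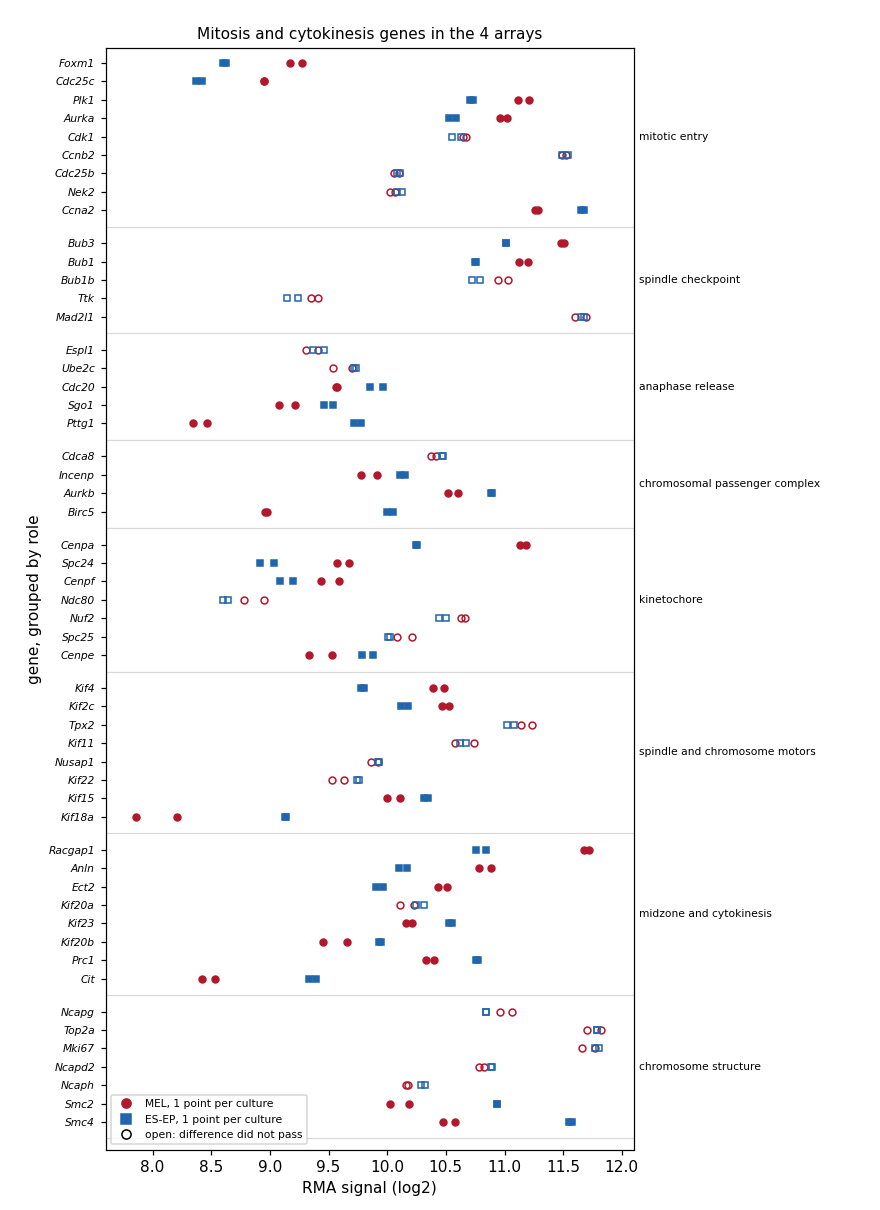
RMA signal on the log2 scale (x axis) of the 53 mitosis and cytokinesis genes (y axis, grouped by role), with 1 point for each culture, circles for MEL and squares for ES-EP. Open symbols mark the 23 genes whose difference did not pass; levels are to be compared along a row, since features of different genes are not on a common scale.

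The promoters of these genes share sequence elements that played no part in their choice. Promoters of genes expressed in G2 and M phase often hold a CHR element, TTTGAA, which the MuvB complex binds, and CCAAT boxes, which are bound by NF-Y. RefSeq promoter windows of 300 bases, 250 before and 50 after a start site on GRCm38.p6, were at hand for 44 of the 53 genes. TTTGAA was found on either strand for 31 of the 44 genes (70.5%), against 20.2% of the 27025 genes with a window. CCAAT was likewise found for 31 of the 44 (70.5%), against 41.1%, and both motifs in the same window for 26 (59.1%), against 7.97%. Both strands were searched, and matches of the 2 motifs may share bases. Counting a site in overlapping windows once, there were 41 TTTGAA matches, of which 30 began within 50 bases of a start site.

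The match was seen among higher and lower genes alike, at different shares. Of the 11 higher genes with a window 10 held TTTGAA, as did 15 of the 21 that did not pass and 6 of the 12 lower genes. In the 23 genes of an S phase list with a window, TTTGAA was found for 3 and CCAAT for 14. These are descriptions of short windows, no difference between the shares was tested, and a match is not a binding site.

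**Figure D2:**
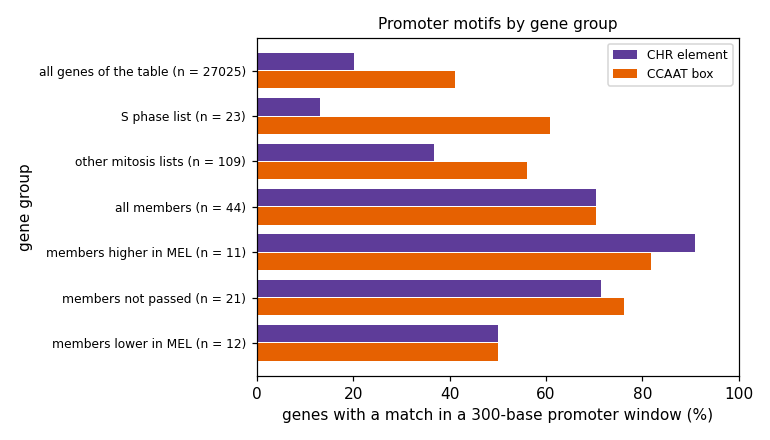
Share of genes, in percent (x axis), whose 300-base RefSeq promoter window holds the CHR element TTTGAA or a CCAAT box on either strand, for the groups of genes on the y axis with their number n. The CHR bar reaches 70.5% for the mitosis genes with a window and 20.2% for all genes of the table.

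A set of 8 promoters is printed from genes of different outcome, and TTTGAA lies in the printed stretches of Bub3, Cdk1, Prc1 and Cdc20 only. The 100 bases before the start site are printed 5′ to 3′ along the gene, with TTTGAA and CCAAT matches on either strand in capitals. Cenpa (chr5:30666786-30666885, plus strand), Racgap1 (chr15:99651657-99651756, minus strand) and Bub3 (chr7:131560270-131560369, plus strand) were higher in MEL, and Cdk1 (chr10:69352913-69353012, minus strand) did not pass. Prc1 (chr7:80294376-80294475, plus strand) and Cdc20 (chr4:118437344-118437443, minus strand) were lower, as were Birc5 (chr11:117849137-117849236, plus strand) and Pttg1 (chr11:43425982-43426081, minus strand), which are shown because they were at least 2-fold lower on the values as deposited and hold no match in the window, like Kif18a, which is not shown. In Cenpa and Racgap1 the TTTGAA match lay after the start, from positions 17 and 6, and is not part of the stretch shown.
Cenpa: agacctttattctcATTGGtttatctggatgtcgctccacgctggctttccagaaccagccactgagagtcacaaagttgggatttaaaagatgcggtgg
Racgap1: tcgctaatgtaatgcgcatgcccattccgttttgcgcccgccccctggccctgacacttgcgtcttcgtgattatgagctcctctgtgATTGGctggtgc
Bub3: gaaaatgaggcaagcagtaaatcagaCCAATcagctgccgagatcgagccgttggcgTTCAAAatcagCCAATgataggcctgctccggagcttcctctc
Cdk1: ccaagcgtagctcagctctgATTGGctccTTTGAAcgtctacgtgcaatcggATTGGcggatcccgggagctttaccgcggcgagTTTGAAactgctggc
Prc1: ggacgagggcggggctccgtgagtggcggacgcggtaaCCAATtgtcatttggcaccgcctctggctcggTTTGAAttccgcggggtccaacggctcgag
Cdc20: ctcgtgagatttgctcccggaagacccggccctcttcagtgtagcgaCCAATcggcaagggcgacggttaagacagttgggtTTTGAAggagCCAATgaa
Birc5: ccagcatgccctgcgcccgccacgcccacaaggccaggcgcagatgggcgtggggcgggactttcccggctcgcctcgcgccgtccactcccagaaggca
Pttg1: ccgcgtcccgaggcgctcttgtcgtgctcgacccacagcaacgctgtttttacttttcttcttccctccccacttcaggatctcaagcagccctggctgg
Bub3 and Prc1 have 2 windows each, from neighbouring start sites, and the window with more matches in the printed stretch is shown. In the other window of Prc1 the matches begin at -5 and -37, and in that of Bub3 TTTGAA begins at -167. In Bub3, Cdk1, Prc1 and Cdc20 a CCAAT box stands upstream of TTTGAA, at positions -74, -48, -62 and -53 against -43, -15, -30 and -18. The 4 stretches are not alike in full. TTTGAA of Bub3 is on the other strand, and Bub3 and Cdc20 hold a further CCAAT match after it, at -32 and -8. These promoters were chosen after their values were seen, so they cannot show how the arrangement is spread over outcomes. Both motifs shared a window in 8 of the 11 higher genes, 14 of the 21 that did not pass and 4 of the 12 lower genes. No difference between these shares was tested.

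Among genes of mitotic entry, 3 kinases or phosphatases and Foxm1 were higher in MEL and cyclin A2 was lower. Of 9 measured genes 4 were higher, 1 was lower and 4 did not pass, with a median difference of 0.07. The shares of all genes were 21.8% higher and 36.9% lower. Foxm1, the transcription factor of late cell cycle genes, read 9.17 and 9.27 in MEL cultures A and B and 8.63 and 8.60 in ES-EP cultures A and B. It was 1.52-fold higher (0.60 ± 0.08 on the log2 scale, SE, limma adjusted p = 0.000805), and the groups did not overlap. Cdc25c, a phosphatase that activates CDK1, read 8.95 in both MEL cultures and 8.37 and 8.42 in ES-EP cultures, and was 1.47-fold higher (limma adjusted p = 0.00102). Plk1, the polo-like kinase of entry and spindle assembly, read 11.12 and 11.20 against 10.70 and 10.73. Aurka, the kinase of centrosome maturation, read 10.97 and 11.02 against 10.59 and 10.53. Both kinases were higher by more than the spread of the duplicates, at 1.36-fold and 1.35-fold (limma adjusted p = 0.00329 and 0.00355).

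Cdk1 itself read 10.65 and 10.67 in MEL and 10.63 and 10.55 in ES-EP cultures, which is 0.07 higher (95% interval -0.12 to 0.26), limma adjusted p = 0.502. After quantile normalization Cdk1 was 0.23 higher and passed (limma adjusted p = 0.0359), while after centring and cyclic loess it did not (0.41 and 0.0803). Ccnb2, a B-type cyclin, differed by -0.01 and the phosphatase Cdc25b by -0.01, each with an interval of -0.20 to 0.18, and the centrosomal kinase Nek2 by -0.06. Those intervals leave no room for a 1.5-fold difference in Cdk1, Ccnb2 or Cdc25b on the values as deposited. Ccna2, the cyclin that acts from S phase to early mitosis, was the lower gene of the group, at 11.26 and 11.29 in MEL against 11.65 and 11.67 (1.31-fold, limma adjusted p = 0.00509).

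Of 5 spindle checkpoint genes 2, Bub1 and Bub3, were higher in MEL and 3 did not pass, with a median difference of 0.23. Of all genes 21.8% were higher. Bub3, which carries the BUB kinases to kinetochores, read 11.49 and 11.51 in MEL and 11.02 and 11.01 in ES-EP cultures, 1.40-fold higher (limma adjusted p = 0.00185). Its partner kinase Bub1 read 11.12 and 11.20 against 10.75 and 10.76, 1.33-fold higher (limma adjusted p = 0.00467). Bub1b, which encodes BUBR1, differed by 0.23 (limma adjusted p = 0.0545) and Ttk, the kinase that starts checkpoint signalling, by 0.19 (limma adjusted p = 0.103). Both did not pass on the values as deposited, and both passed after quantile normalization and after cyclic loess. Mad2l1, the inhibitor of the anaphase promoting complex, read 11.60 and 11.69 in MEL against 11.65 and 11.68, and its groups overlapped.

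The role called anaphase release holds 5 genes that either promote or restrain it, Pttg1 and Sgo1 being restraints. Of the 5 genes 3 were lower in MEL, Pttg1, Cdc20 and Sgo1, and 2 did not pass, with a median difference of -0.34. Of all genes 36.9% were lower, and of the 3 calls only that of Pttg1 held under each of the 13 alternatives. Pttg1, which encodes securin, the inhibitor that separase is freed from, read 8.46 and 8.35 in MEL and 9.77 and 9.72 in ES-EP cultures. At 2.53-fold lower (-1.34 ± 0.09, SE, limma adjusted p = 1.66e-05) it differed most of the 53 genes. Espl1, the gene of separase itself, read 9.30 and 9.41 against 9.37 and 9.46, and overlapped. Within an array, Pttg1 minus Espl1 was -0.84 and -1.06 in MEL and 0.41 and 0.26 in ES-EP cultures, so securin and separase transcripts differed unequally. Cdc20, the activator of the anaphase promoting complex, was 1.27-fold lower (limma adjusted p = 0.0116), but did not pass under any of the 3 other scalings. Sgo1, which protects centromeric cohesion, was 1.28-fold lower (limma adjusted p = 0.0122). Without ES-EP culture A neither Cdc20 nor Sgo1 passed (limma adjusted p = 0.112 and 0.0888). Ube2c, the ubiquitin-conjugating enzyme of that complex, differed by -0.11 (limma adjusted p = 0.338).

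The chromosomal passenger complex, which corrects attachments and later steers cleavage, had 3 subunits lower in MEL on the values as deposited, of which Birc5 is the firm one. Of 4 genes 3 were lower, against 36.9% of all genes, and 1 did not pass, with a median of -0.31. Birc5, the survivin subunit that brings the complex to centromeres, read 8.96 and 8.98 in MEL and 10.05 and 10.00 in ES-EP cultures, 2.08-fold lower (-1.05 ± 0.08, SE, limma adjusted p = 3.9e-05). Its kinase Aurkb read 10.52 and 10.60 against 10.89 and 10.90, 1.26-fold lower (limma adjusted p = 0.0121), and the scaffold Incenp was 1.22-fold lower (limma adjusted p = 0.0274). Cdca8, the borealin subunit, read 10.38 and 10.41 against 10.47 in both ES-EP cultures, a difference of -0.08 that did not pass (limma adjusted p = 0.453). The calls of Aurkb and Incenp were the less firm. Both were lost after quantile normalization (limma adjusted p = 0.0698 and 0.145) and after centring (0.0777 and 0.151), and without either ES-EP culture, while Birc5 passed under each of the 13 alternatives. Incenp was also lost without MEL culture A (limma adjusted p = 0.0734). Birc5 minus the mean of the other 3 subunits was -1.26 and -1.33 in MEL and -0.44 and -0.51 in ES-EP cultures.

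Kinetochore genes passed in both directions, with Cenpa the furthest apart. Of 7 genes 3 were higher, 1 was lower and 3 did not pass, with a median of 0.24. Among all genes 21.8% were higher and 36.9% lower. Cenpa, the histone variant that marks centromeres, read 11.13 and 11.18 in MEL and 10.24 and 10.25 in ES-EP cultures. It was 1.88-fold higher (0.91 ± 0.08, SE, limma adjusted p = 8.43e-05), and it was the highest difference of the 53 genes. The 4 subunits of the NDC80 complex, which grips microtubule ends, were each higher in both MEL cultures than in both ES-EP cultures. The same order was seen for 28.7% of all genes. Of these Spc24 passed, at 9.57 and 9.67 against 9.03 and 8.91 (1.57-fold, limma adjusted p = 0.000795). Ndc80 differed by 0.24, Nuf2 by 0.18 and Spc25 by 0.13 (limma adjusted p = 0.0574, 0.106 and 0.222), and these 3 passed after quantile normalization and cyclic loess. The corona proteins split. Cenpf was 1.29-fold higher (limma adjusted p = 0.0128) and Cenpe, a kinesin that moves chromosomes to the spindle equator, was 1.32-fold lower, at 9.33 and 9.53 against 9.78 and 9.88 (limma adjusted p = 0.0116). Cenpf did not pass without ES-EP culture A (limma adjusted p = 0.0935), nor Cenpe without ES-EP culture B (0.0738).

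Motors and microtubule proteins of the spindle differed in both directions. Of 8 genes 2 were higher, 2 were lower and 4 did not pass, with a median of -0.01. These counts stand against 21.8% of all genes higher and 36.9% lower. Kif4, a chromosome-bound kinesin, read 10.39 and 10.48 in MEL and 9.81 and 9.77 in ES-EP cultures, 1.56-fold higher (limma adjusted p = 0.000556). Kif2c, a microtubule-depolymerising kinesin of centromeres, was 1.27-fold higher (limma adjusted p = 0.00925). Kif18a, which dampens chromosome movement at the equator, read 7.86 and 8.21 in MEL against 9.14 and 9.13. It was 2.15-fold lower (-1.10 ± 0.12, SE, limma adjusted p = 0.00025), and its MEL duplicates were 0.35 apart, the widest of the 53 genes. Kif15 was 1.21-fold lower (limma adjusted p = 0.0276), a call lost under all 3 other scalings, without MEL culture A and without either ES-EP culture. Kif2c did not pass without ES-EP culture A (limma adjusted p = 0.0788). The motor Kif11, which pushes the spindle poles apart, differed by 0.01 with an interval of -0.21 to 0.23. Tpx2, Nusap1 and Kif22 differed by 0.14, -0.03 and -0.17 and did not pass. Tpx2 passed as higher after quantile normalization, cyclic loess and with a trended prior (limma adjusted p = 0.0177, 0.0297 and 0.0406), and Kif22 as lower with the trended prior (0.0453).

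Genes of the spindle midzone and of cytokinesis were divided. Of 8 genes 3 were higher, 4 were lower and only Kif20a, at -0.11, did not pass. The shares among all genes were 21.8% higher and 36.9% lower. Racgap1, the GTPase-activating subunit of centralspindlin, read 11.68 and 11.72 in MEL and 10.85 and 10.76 in ES-EP cultures, 1.87-fold higher (0.90 ± 0.08, SE, limma adjusted p = 0.000106). Anln, the contractile ring scaffold anillin, read 10.78 and 10.88 against 10.10 and 10.16, 1.63-fold higher. Ect2, the exchange factor that RACGAP1 recruits to activate RhoA, read 10.43 and 10.51 against 9.90 and 9.96, 1.46-fold higher. The higher genes included the RhoA activator and a scaffold of the ring that RhoA organises. Other cytokinesis genes were divided. Cit and Myh9 were lower, Myh10 was higher, and Rhoa and Rock1 did not pass.

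The lower genes of the group included centralspindlin's other subunit. Cit, the citron kinase of the late midbody, read 8.42 and 8.53 in MEL and 9.33 and 9.39 in ES-EP cultures, 1.85-fold lower (-0.89 ± 0.09, SE, limma adjusted p = 0.000135). Prc1, which bundles midzone microtubules, was 1.32-fold lower (limma adjusted p = 0.00491), Kif20b 1.30-fold (limma adjusted p = 0.0123) and Kif23, the motor subunit of centralspindlin, 1.28-fold (limma adjusted p = 0.00852). Without ES-EP culture A, Kif20b and Kif23 did not pass (limma adjusted p = 0.0589 and 0.0504), and without ES-EP culture B Kif23 did not (0.066). Kif23 was also lost after centring (-0.29, limma adjusted p = 0.0546). Racgap1 and Kif23, partners in a single complex, thus passed in opposite directions on the values as deposited, with the call of Kif23 the weaker. Racgap1 minus Kif23 within an array was 1.52 and 1.51 in MEL and 0.32 and 0.20 in ES-EP cultures. That contrast was 1.25 as deposited, 1.23 after quantile normalization and 1.25 after cyclic loess.

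Among genes of chromosome structure the SMC subunits of condensin were lower in MEL. Of 7 genes 2 were lower, against 36.9% of all genes, and 5 did not pass, with a median of -0.08. Smc4, an ATPase subunit of condensin, read 10.47 and 10.58 in MEL and 11.57 and 11.55 in ES-EP cultures, 2.05-fold lower (limma adjusted p = 5.39e-05). Its partner Smc2 read 10.03 and 10.19 against 10.94 in both ES-EP cultures, 1.78-fold lower (limma adjusted p = 0.000229). The 3 other subunits of condensin I did not pass, with Ncapd2 at -0.08, Ncaph at -0.14 and Ncapg at 0.17. Ncapg read 10.96 and 11.07 in MEL against 10.84 in both ES-EP cultures, and passed as higher after quantile normalization (0.32, limma adjusted p = 0.00964), cyclic loess (0.28, limma adjusted p = 0.0169) and with a trended prior (0.0167). The mean of Smc2 and Smc4 minus that of these 3 subunits was -0.39 and -0.30 in MEL and 0.58 and 0.56 in ES-EP cultures.

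Condensin II uses the same SMC pair with subunits of its own. Ncapg2 was 1.22-fold higher (limma adjusted p = 0.021), while Ncaph2 differed by -0.22 and Ncapd3 by -0.03 and did not pass. The SMC pair of cohesin, which holds sister chromatids together, went the other way from that of condensin. Smc1a was 1.47-fold and Smc3 1.46-fold higher in MEL (limma adjusted p = 0.00112 and 0.00125). The proliferation marker Mki67 read 11.66 and 11.77 in MEL against 11.77 and 11.81, and differed by -0.08 with an interval of -0.28 to 0.13. Top2a, the topoisomerase that untangles chromatids, read 11.71 and 11.83 against 11.79 in both ES-EP cultures. A second, dim Top2a feature read 4.91 and 5.09 in MEL against 5.59 and 5.54 and was lower by -0.57 (limma adjusted p = 0.00179), so the features of Top2a disagree. It was the only measured mitosis gene with more than 1 feature.

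**Figure D3:**
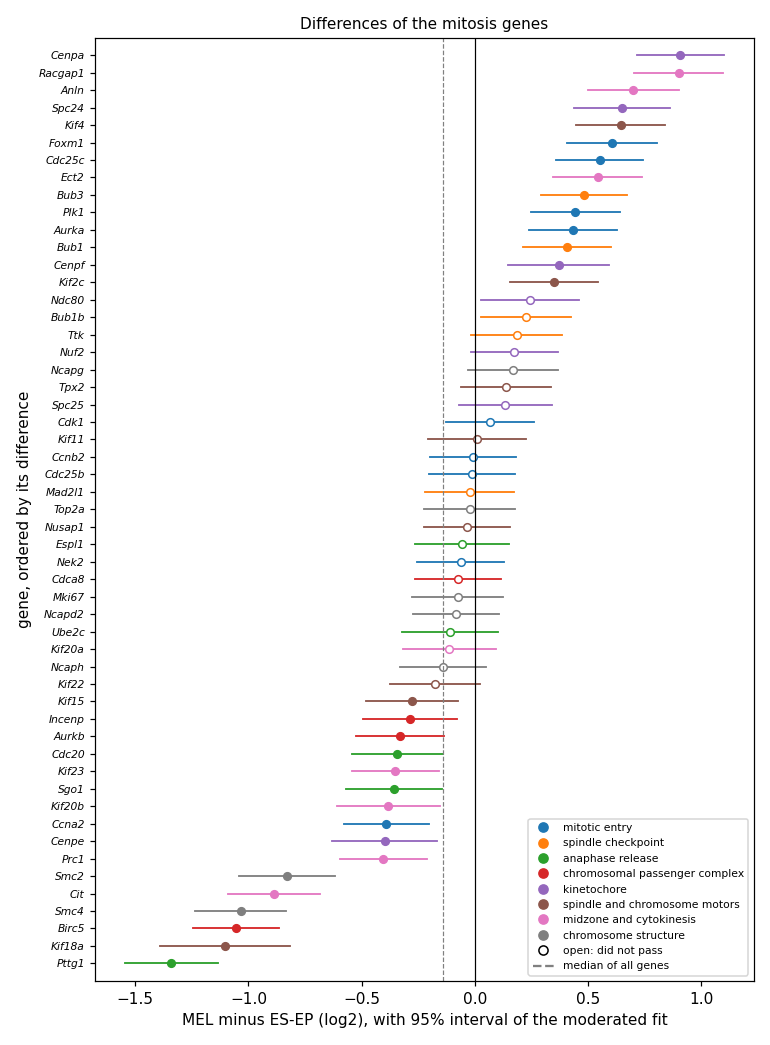
Difference of MEL minus ES-EP on the log2 scale (x axis) for the 53 genes (y axis, in order of their difference), coloured by role, with the 95% interval of the moderated limma fit as a line and open circles for genes that did not pass. The dashed line is the median of all genes, -0.14; the genes run from Pttg1 at -1.34 to Cenpa at 0.91, and most roles have members on both sides.

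The scaling of the arrays moved the balance of higher and lower genes. The median difference of all genes was -0.14 as deposited, -0.02 after quantile normalization, -0.07 after centring on array medians and 0.02 after cyclic loess. Under the same scalings the median of the mitosis genes was -0.02, 0.10, 0.04 and 0.09, so its sign depended on the scaling. Relative to all genes it was 0.12, 0.12, 0.12 and 0.07. The mitosis genes had 22 higher and 12 lower after quantile normalization (against 26.7% and 28.6% of all genes), 15 and 11 after centring (23.0% and 28.8%), and 21 and 13 after cyclic loess (29.0% and 24.5%). Under all 4 scalings the medians of mitotic entry, the checkpoint and the kinetochore were positive, and those of anaphase release, the passenger complex and the midzone were negative. The medians of the spindle motors and of chromosome structure changed sign. A further list of 30 other kinetochore and centromere genes, described below, had negative medians instead, -0.45, -0.40, -0.38 and -0.36 in the same order. The sign for the kinetochore thus holds for the 7 genes of that role only.

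**Figure D4:**
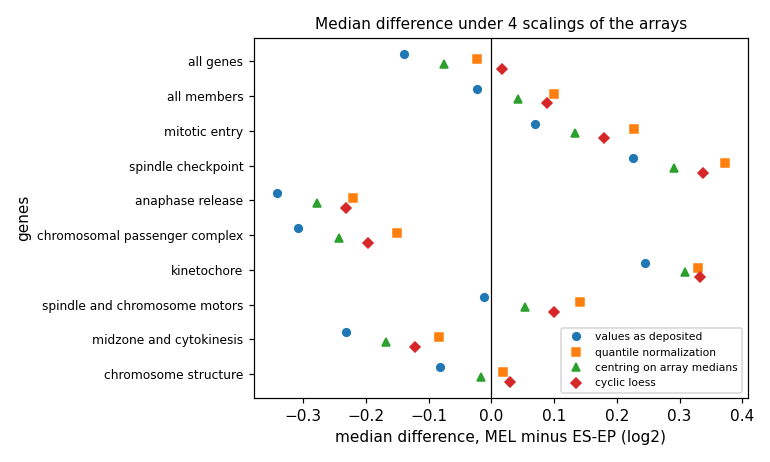
Median difference of MEL minus ES-EP on the log2 scale (x axis) for all genes, for the 53 mitosis genes and for each role (y axis), with a symbol for each of the 4 scalings of the arrays. The checkpoint and kinetochore medians are above 0 and the anaphase release and passenger complex medians below 0 under each scaling.

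The duplicates showed a small offset between the MEL cultures. MEL culture A was below culture B for 49 of the 53 genes (92.5%), by a median of 0.09, while ES-EP culture A was below culture B for 31. Over all genes MEL culture A was below B for 52.7%. Among the 4352 genes whose mean signal lay in the same range, 8.58 to 11.8, the share was 86.0%, so the offset was common to genes of this brightness. In that range 26.8% of genes were higher and 40.9% lower in MEL, with a median of -0.12. Without MEL culture A, 16 mitosis genes were higher and 14 lower, against 21.7% and 37.4% of all genes, and Kif18a (-0.93) and Smc4 (-0.98) came under 2-fold. Without ES-EP culture A, 12 were higher and 9 lower, against 17.8% and 26.7% of all genes.

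**Figure D5:**
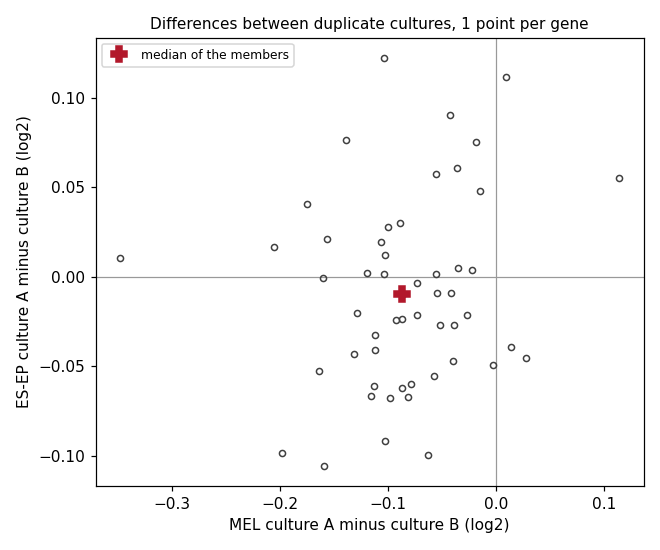
Difference between culture A and culture B on the log2 scale in MEL (x axis) and in ES-EP cells (y axis), with a circle for each of the 53 genes and a cross at their medians. Nearly all circles lie left of 0 on the MEL axis, 49 of 53, and the ES-EP differences lie on both sides of 0.

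Further mitosis genes outside the list were counted in the same fit, in 6 lists named for what their genes do. Of 131 such genes 30 were higher, 59 were lower and 42 did not pass, with a median of -0.20. By comparison 21.8% of all genes were higher and 36.9% lower, with a median of -0.14. The other kinetochore and centromere genes were mostly lower, 20 of 30 against 5 higher, with a median of -0.45. The list included Spdl1, which brings dynein to kinetochores, 2.12-fold lower, and Mis18a, which prepares centromeres to receive CENPA, 1.70-fold higher. Genes of cohesin and condensin II had 8 higher and 3 lower of 15, with Sgo2a, a protector of cohesin, 1.69-fold higher and Stag2, a cohesin subunit, 3.29-fold lower. The anaphase promoting complex had 2 higher and 5 lower of 17, with Ube2s 1.24-fold higher and the subunit gene Anapc15 2.45-fold lower. Centrosome and spindle assembly genes had 3 higher and 13 lower of 30, with Troap 1.75-fold higher and Haus2, of the augmin complex, 2.11-fold lower. Cyclic loess gave 9 and 10 there, against 29.0% and 24.5% of all genes.

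The largest differences among the listed and the further mitosis and cytokinesis genes lay in these further lists. Other cytokinesis genes had 5 higher and 7 lower of 17, against 21.8% and 36.9% of all genes. Myh10, a non-muscle myosin of the contractile ring, read 9.98 and 10.09 in MEL and 5.45 and 5.25 in ES-EP cultures, 25.7-fold higher (limma adjusted p = 1.21e-07), and Shcbp1 was 2.21-fold lower. Myh9, another non-muscle myosin, was bright in both systems. It read 9.49 and 9.44 in MEL against 9.81 and 9.87, 1.29-fold lower (limma adjusted p = 0.00709). Septin9, a septin filament gene, and Cep55, which acts in abscission at the midbody, are named after their values were seen. Septin9 read 8.79 and 8.93 in MEL against 5.63 and 5.65, 9.31-fold higher (limma adjusted p = 3.14e-07). Cep55 read 7.56 and 7.87 against 4.87 and 4.60, 7.90-fold higher (limma adjusted p = 2.87e-06). The ES-EP readings of Myh10, Septin9 and Cep55 lay under the medians of all tested features on those arrays, 5.91 and 5.89. Their folds are thus set against dim readings. Other entry genes had 7 higher and 11 lower of 22, again against 21.8% and 36.9% of all genes. Mybl2, the MYB factor that binds MuvB before FOXM1 does, read 8.99 and 9.18 in MEL against 10.50 and 10.49, 2.65-fold lower (limma adjusted p = 2.13e-05). Lin37, a MuvB subunit, was 2.47-fold higher (limma adjusted p = 1.4e-05). The other MuvB subunits of the list did not share this rise. Lin52 was 1.89-fold and Lin9 1.37-fold lower (limma adjusted p = 0.000204 and 0.0128), and Lin54 did not pass (0.147). Foxm1 and Mybl2 thus passed in opposite directions, and Foxm1 minus Mybl2 within an array was 0.19 and 0.09 in MEL and -1.87 and -1.88 in ES-EP cultures. In the S phase list, by comparison, 25 of 28 genes were lower, against 36.9% of all genes, and 3 did not pass, with a median of -0.76.

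Erythroid markers differed in level between the systems. All 10 measured erythroid markers read at least 6.98 on every array. Gata1 read 11.92 and 11.96 in MEL and 11.50 and 11.47 in ES-EP cultures. The floor of 6.98 was set by Slc4a1 in MEL and is not particular to erythroid genes. Itga2b, Pf4 and Prtn3, of other lists, read above Slc4a1 in MEL, and Ms4a2 read above 6.98 in ES-EP cultures. Of the 10 markers 8 were lower in MEL, by limma, and 2 higher, Gata1 and Epor, with a median difference of -0.80. Klf1, the erythroid Krüppel-like factor, read 10.45 and 10.55 against 11.30 and 11.31. The furthest apart was Slc4a1, the anion exchanger of red cells, at 6.98 and 7.10 in MEL against 12.45 and 12.51. Marker lists of neutrophils and monocytes, mast cells, lymphocytes and pluripotent cells had array medians of 3.85 to 5.10. The brightest of their genes were Prtn3 (7.50 and 7.34 in MEL, 5.58 and 5.66 in ES-EP cultures), Ms4a2 (3.99 and 3.87, 7.48 and 7.43), Cd3e (5.87 and 5.72, 6.05 and 6.08) and Nanog (5.43 and 5.20, 5.65 and 6.11). The 3 measured megakaryocyte markers had 2 higher in MEL and 1 that did not pass, Gp9 (7.01 and 6.91 in MEL, 6.82 and 7.20 in ES-EP cultures). Pf4, the gene of platelet factor, read 8.39 and 8.29 in MEL and 4.05 and 3.86 in ES-EP cultures, 20.8-fold higher (limma adjusted p = 1.27e-07). Itga2b, the brightest, read 9.14 and 9.09 against 6.88 and 6.91. Stromal markers had medians of 5.83 to 6.27, led by Col1a1 (6.74 and 6.66, 6.94 and 7.02). The part of such cells in the results was not tested. Duplicate arrays correlated across features with r = 0.997 in MEL and 0.998 in ES-EP cells, and arrays of different groups with 0.948 to 0.949.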

How the data were processed

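RNA of 2 MEL and 2 ES-EP cultures was hybridised to 1-colour arrays. The authors deposited RMA values on a log2 scale, made with GeneSpring GX per the labels; RMA is also in the submitters' processing notes. That they are log2 was judged from their range. The sources used here give no software version, filter or build. RMA hides changes in total RNA per cell and compresses differences of dim features. The table has no detection calls.

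Of 35557 features, 6613 control features were left out and 28944 tested. Names came from the platform annotation, updated through Entrez identifiers with RefSeq (GRCm38.p6) for 21698 features. A total of 21789 features had 1 symbol, 1621 several and 5534 none, and features with several named no gene. The brightest feature stood for a gene. MEL was set against ES-EP with lmFit and eBayes (limma 3.58.1, R 4.3.3) and Benjamini-Hochberg adjustment over the 28944 features. Passing means an adjusted p under 0.05. There were 2 residual and 5.15 prior degrees of freedom, and an exact permutation test of 2 against 2 arrays cannot give a two-sided p under 0.333. The number of arrays limits the precision. The script was tested on simulated data.

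The genes, roles, further lists, markers and alternatives were chosen with earlier results of these data known. Values per array are given for genes passing with a difference of at least 0.5, for the extremes of each role, and for 6 central genes whatever their result. Of each further list the largest passing rise and fall are named, and of each marker list the brightest gene. Gata1, Klf1 and Slc4a1 are given of the erythroid list. Septin9, Cep55, Myh9, Rhoa, Rock1, Lin9, Lin52, Lin54, Pf4 and Gp9 are named beyond this rule, after their values were seen. Differences between partner genes within an array, and the promoters printed, were chosen after their values were seen and were not tested. The alternatives were 3 scalings, a trended and a robust prior, a filter on dim features, features with 1 symbol, the mean of a gene's features, the replicate letter as a block, and each culture left out.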

Additional observations from a re-analysis of the deposited data

How the results depend on the processing

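Of the 30 genes that passed, 20 kept their call under all 13 alternatives, and no passing difference changed sign. The count of higher genes, 14, became 22 after quantile normalization and lay between 12 and 16 with a culture left out. The count of lower genes, 16, lay between 9 and 16 with a culture left out, with 9 without ES-EP culture A. The calls lost there were those of Aurkb, Cdc20, Cenpf, Incenp, Kif15, Kif20b, Kif23, Kif2c and Sgo1. The median difference, -0.02, was 0.100 with quantile normalization, 0.042 with centring and 0.0894 with cyclic loess, and lay between -0.0708 (without MEL culture B) and -0.00575 (without MEL culture A) with a culture left out, against a spread of 0.04 between replicates. The cause of these changes was not tested beyond their construction. After centring, the prior gave all features a common spread. With a trended prior 20 genes were higher and 17 lower (22.4% and 37.8% of all genes), with features under the median signal left out 16 and 16 (34.7% and 37.1% of the 10646 genes kept), with 1-symbol features 16 and 16 (22.1% and 38.2%), and with the mean of a gene's features 14 and 17 (21.7% and 37.2%), Top2a being the added lower gene. With a culture left out the shares of all genes ran from 17.8% to 21.7% higher and from 26.7% to 37.4% lower. With the replicate block 14 were higher and 16 lower (22.0% and 37.7%), with every call as in the fit without it; the letters A and B are not stated to pair cultures, and the deviations of the A cultures correlated with r = 0.11. Among the 53 mitosis genes, with 2 arrays a group, no difference of up to 0.24 on the log2 scale passed and all from 0.28 did. Outside them the limit differed with the spread of the gene. Dlgap5 passed at -0.22 (SE 0.08) and Fcer1a did not at -0.31 (SE 0.13). Levels of dim features such as the second one of Top2a may be close to background.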
